A study of Mus musculus with 4 samples.

Results

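The 10 genes described here make, break down, carry or sense retinoic acid. They were chosen by symbol, and all 10 were found among the 32285 genes of the count table. Single cells of mouse testis were sequenced from their 3' ends (10x droplets) as 4 libraries, 1 each for Znhit1_KO and CTRL at postnatal days 16 and 35, to explore what depletion of ZNHIT1 does in germ cells. ZNHIT1 is a subunit of the chromatin remodelling complex that deposits the histone variant H2A.Z. The count table of the Znhit1_KO library of day 35 was analysed, while the tables of the remaining 3 were not used here, so every value is a level within the knockout testis and none is an effect of the knockout. The Cre line or other means of deletion, the cells it acts in and the number of animals are not given in the sources used here.

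Retinoic acid is made from retinol (vitamin A) in a pair of oxidation steps. Retinol dehydrogenases such as RDH10 give retinal, and the retinal dehydrogenases ALDH1A1, ALDH1A2 and ALDH1A3 give retinoic acid. CYP26 enzymes break it down, CRABP proteins bind it in the cytoplasm, STRA6 takes retinol into cells, and the retinoic acid receptors, RARG among them, act on genes in the nucleus. In the mouse testis, retinoic acid starts the differentiation of spermatogonia and the entry into meiosis, for which STRA8 is needed.

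The library held 15306 barcodes with 72459160 UMIs (counted molecules), at a median of 3409 and a range of 500 to 87246 UMIs per barcode. The 7856 cells used had 48553315 UMIs in all, 4607 per cell at the median. Between 57 and 81 barcodes were shared with each of the other 3 libraries. Znhit1, the targeted gene, stood at 2.49 CPM in germ-cell-like cells (80 UMIs) and 15.8 CPM in somatic-like cells (233 UMIs), where CPM is the gene's share of all UMIs of the class, scaled to a fixed total. That is 6.33-fold lower in germ-cell-like cells, with an exact conditional binomial 95% interval of 4.89 to 8.27. Reads come from 3' ends, which the deletion need not include, so this value does not check the label. All intervals cover counting error only, and with 1 library there is no test and no p-value.

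The cells were sorted into classes by marker genes that exclude the 10 genes. Germ-cell-like cells numbered 4389 (55.9% of the cells), in 306 cells like undifferentiated spermatogonia, 1286 like differentiating spermatogonia, 2349 like spermatocytes of early meiotic prophase and 448 like pachytene spermatocytes. Somatic-like cells numbered 2595 (33.0%), in 183 Sertoli-like, 955 Leydig-like, 671 peritubular-or-pericyte-like, 241 stroma-like, 446 macrophage-like and 75 endothelial-like cells, besides 15 lymphocyte-like and 9 epithelium-like cells that are too few to rank. Another 872 shallow cells, with a median of 1283 UMIs, stayed unnamed. Names go by the mean score of a class's markers, and the summed level does not always follow them. The 14 markers of undifferentiated spermatogonia summed to 909 CPM in the cells named for them but to 1057 CPM in Sertoli-like cells. The 9 markers of differentiating spermatogonia summed to 1101 CPM in undifferentiated-spermatogonium-like, 1006 CPM in differentiating-spermatogonium-like and 1148 CPM in early-prophase-like cells.

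Cyp26a1 is known as a direct target of retinoic acid, through a response element in its promoter, so its promoter is shown with that of Crabp1, the most spermatogonial of the binding proteins in these data. RefSeq's promoter table (GRCm38.p6, the same build as mm10) held 7 of the 10 genes, with 12 start sites. The 250 bases before each start were searched on both strands for 2 direct copies of AGNTCA that are 5 bases apart (DR5) or 2 bases apart (DR2). Only the Cyp26a1 window held a match, a DR5 whose first base is at position -32 from the start. Copies with other letters were not searched for, so a window without a match can still hold a response element. Of all 32851 promoters in the table, 0.198% held a DR5 and 0.0852% a DR2 in the same window. A match is a run of letters and not a shown binding site. Both windows are given 5′ to 3′ on the gene's plus strand, and the capitals mark the 2 copies, which lie on the minus strand; the Crabp1 window has none. The Cyp26a1 window is chr19:37697558-37697807 and the Crabp1 window is chr9:54764498-54764747.
Cyp26a1: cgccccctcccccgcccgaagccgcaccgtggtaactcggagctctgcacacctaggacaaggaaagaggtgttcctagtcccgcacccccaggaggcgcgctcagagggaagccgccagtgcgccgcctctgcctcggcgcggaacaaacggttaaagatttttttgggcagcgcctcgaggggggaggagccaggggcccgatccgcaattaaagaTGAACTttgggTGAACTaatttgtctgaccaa
Crabp1: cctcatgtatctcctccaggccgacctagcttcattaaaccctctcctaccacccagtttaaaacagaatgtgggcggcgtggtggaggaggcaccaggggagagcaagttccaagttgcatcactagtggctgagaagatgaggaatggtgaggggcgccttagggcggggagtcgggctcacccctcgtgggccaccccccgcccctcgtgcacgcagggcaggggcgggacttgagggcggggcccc

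Each member had its own pattern over the classes, and no class led for all of them. Sertoli-like cells had the highest levels of Rdh10, Cyp26a1 and Stra6, Leydig-like cells that of Aldh1a1, and early-prophase-like cells that of Aldh1a2. Most of the Sertoli-like Rdh10, Aldh1a2 and Cyp26a1 lay in the smaller cluster of that class. Rdh10 stood at 103.8 CPM there and at 14.95 CPM in the larger cluster. Aldh1a2 stood at 142 CPM in the smaller cluster, against 119.7 CPM in early-prophase-like cells. Stroma-like cells led for Aldh1a3, peritubular-or-pericyte-like cells for Cyp26b1 and spermatogonium-like cells for Crabp1 and Crabp2. For Rarg no single class stood apart from the next. UMI counts are not corrected for gene length or capture, so levels are compared across classes and not between genes.

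**Figure D1:**
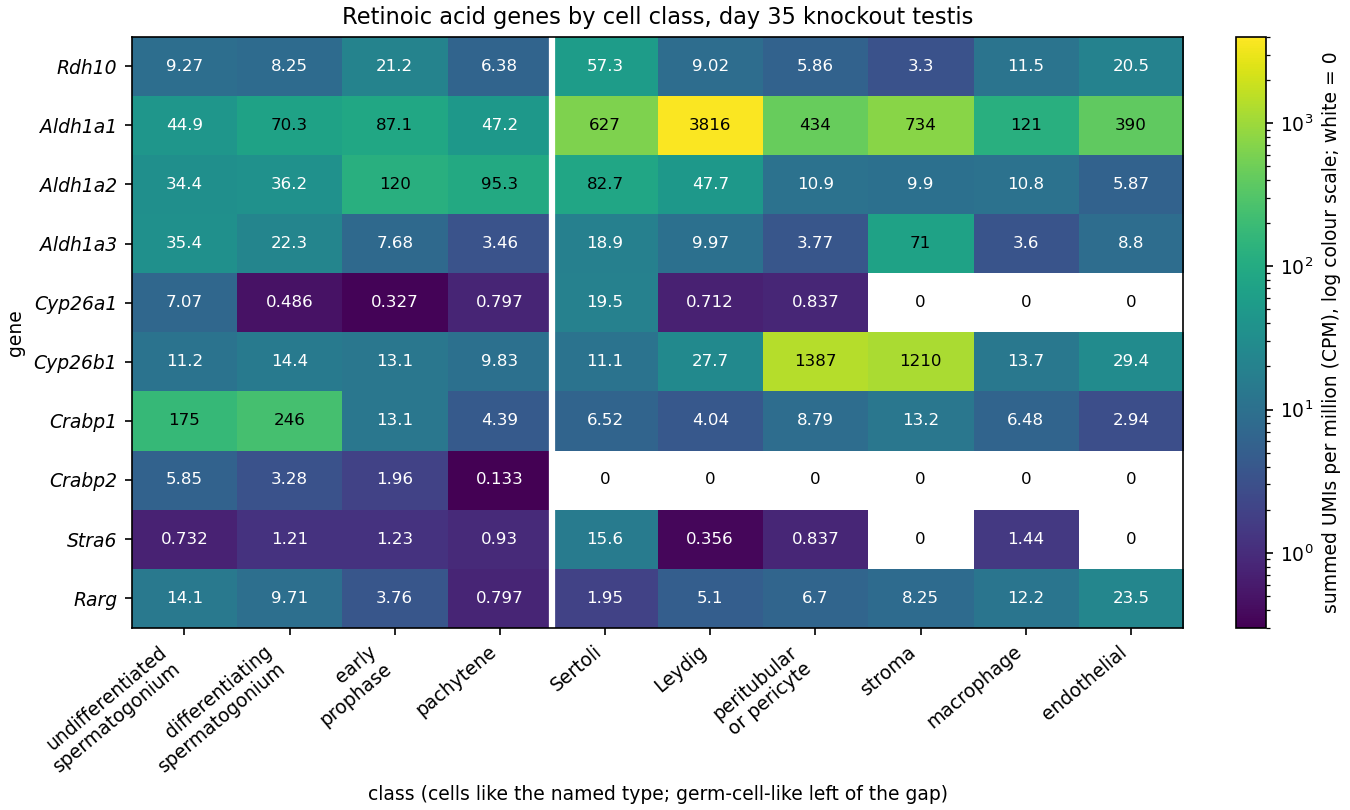
The heat map gives the level of each of the 10 genes (rows) in the 10 classes of at least 50 cells (columns), in CPM on a log colour scale, with the value printed and white for 0. Aldh1a1 reaches 3816 CPM in Leydig-like cells, Cyp26b1 1387 CPM in peritubular-or-pericyte-like cells, and Crabp2 is at 0 in every somatic-like column.

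Rdh10 (ENSMUSG00000025921, mm10 chr1:16105774-16133734, plus strand), the enzyme of the first oxidation step, was highest in Sertoli-like cells at 57.3 CPM (88 UMIs, exact Poisson interval 46.0 to 70.6). Early-prophase-like cells came next at 21.2 CPM (18.7 to 23.9), 2.71-fold below (2.10 to 3.46). The larger Sertoli-like cluster, described below, had only 14.95 CPM (7.72 to 26.1). The endothelial-like level of 20.5 CPM rested on 7 UMIs and could not be told apart from the early-prophase-like one. The other germ-cell-like classes were low, at 9.27 CPM in undifferentiated-spermatogonium-like, 8.25 CPM in differentiating-spermatogonium-like and 6.38 CPM in pachytene-like cells. Leydig-like cells had 9.02 CPM, macrophage-like cells 11.5 CPM, peritubular-or-pericyte-like cells 5.86 CPM and stroma-like cells 3.30 CPM. None of these neighbours in the order differed beyond the counting interval. With each cell thinned to 1000 UMIs, 5.46% of Sertoli-like cells and 2.51% of early-prophase-like cells held a Rdh10 UMI, against 0.415% of stroma-like cells.

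Aldh1a1 (ENSMUSG00000053279, chr19:20492715-20643465, plus strand), a retinal dehydrogenase, was a Leydig-like gene in this library. Leydig-like cells held 32148 of its 37928 UMIs (84.8%), a level of 3816 CPM (3774 to 3858), and 94.8% of them held a UMI after thinning. Stroma-like cells had 734 CPM, 5.197-fold less (4.73 to 5.72), followed by Sertoli-like cells at 627 CPM and peritubular-or-pericyte-like cells at 434 CPM. The endothelial-like level of 390 CPM came largely from 1 cell, which held 93 of the 133 UMIs. Without that cell it was 122 CPM, close to the 121 CPM of macrophage-like cells. The germ-cell-like classes ran from 44.9 CPM in undifferentiated-spermatogonium-like to 87.1 CPM in early-prophase-like cells, and 36.6% of germ-cell-like cells held a UMI before thinning.

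Such low levels can be read against free RNA, which reaches all droplets. Per 100 UMIs of 8 Leydig markers, Aldh1a1 had 31.3 UMIs in germ-cell-like cells (29.9 to 32.9), against 31.6 UMIs in Leydig-like cells themselves (31.2 to 32.0). Macrophage-like cells had 32.1, and all 4 germ-cell-like classes lay between 29.1 and 34.1. These ratios were near that of Leydig-like cells. The source of the Aldh1a1 UMIs in germ-cell-like and macrophage-like cells was not tested, so no expression there is read from them. Sertoli-like cells had 49.7, peritubular-or-pericyte-like cells 133 and stroma-like cells 162 Aldh1a1 UMIs per 100 Leydig marker UMIs, all above that of Leydig-like cells beyond the interval. Endothelial-like cells were above it too, at 53.2 (42.8 to 65.9), but 93 of their 133 UMIs came from 1 cell. Aldh1a7, a close copy of Aldh1a1, stood at 229 CPM in Leydig-like and 33.2 CPM in Sertoli-like cells, and counting could split reads between the copies. Aldh1a1 also overlaps C730002L08Rik and the pseudogene Gm6684 on the other strand, and the sources used here do not state whether strand was used.

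**Figure D2:**
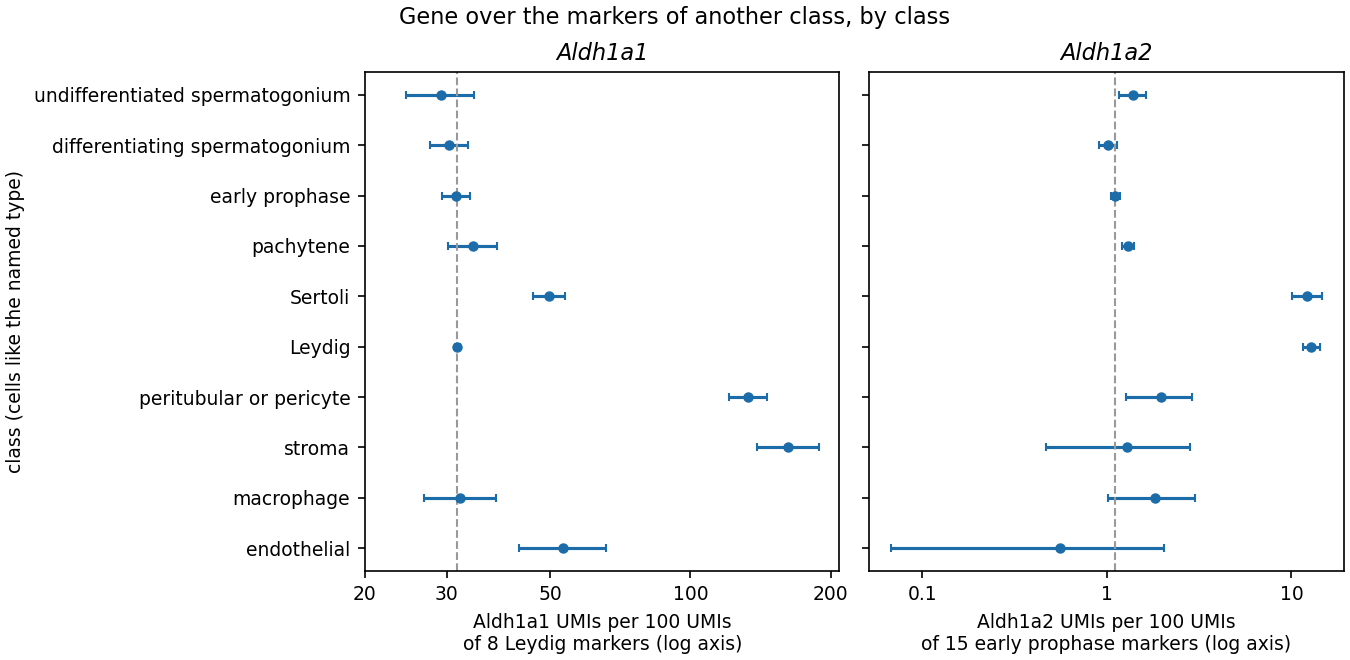
The left panel gives Aldh1a1 UMIs per 100 UMIs of 8 Leydig markers and the right panel Aldh1a2 UMIs per 100 UMIs of 15 early prophase markers, on log axes, for the 10 classes, with 95% counting intervals. The dashed line is the class where the gene is highest. Germ-cell-like and macrophage-like cells sit at the Leydig-like ratio for Aldh1a1, and Sertoli-like and Leydig-like cells sit at 12.2 and 12.8 for Aldh1a2, right of the other classes.

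Aldh1a2 (ENSMUSG00000013584, chr9:71215789-71296243, plus strand), the retinal dehydrogenase known from mouse spermatocytes, had its highest class level in early-prophase-like cells. Germ-cell-like cells held 2621 of its 3278 UMIs (80.0%), a smaller share than for Crabp1 (94.3%) and Crabp2 (98.7%). Of the 48553315 UMIs of all genes, germ-cell-like cells held 32104899. The level was 119.7 CPM in early-prophase-like cells (113.6 to 125.9) and 95.3 CPM in pachytene-like cells (88.4 to 102.5), where 1 cell held 24 of the 717 UMIs. Spermatogonium-like cells had less, 34.4 CPM in the undifferentiated and 36.2 CPM in the differentiating class, which could not be told apart. After thinning, 12.1% of early-prophase-like cells held a UMI, against 3.92% of undifferentiated-spermatogonium-like and 0.830% of stroma-like cells.

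Aldh1a2 was also found in somatic-like cells, at 82.7 CPM in Sertoli-like cells (127 UMIs) and 47.7 CPM in Leydig-like cells (402 UMIs). The Sertoli-like and pachytene-like levels could not be told apart. The smaller Sertoli-like cluster, described below, had 142 CPM (116 to 172), against 119.7 CPM (113.6 to 125.9) in the early-prophase-like class. The Sertoli-like and Leydig-like UMIs of Aldh1a2 did not stand to germ cell markers as they do in germ cells. Per 100 UMIs of the 15 early prophase markers, Aldh1a2 had 12.2 UMIs in Sertoli-like cells (10.1 to 14.7) and 12.8 UMIs in Leydig-like cells (11.5 to 14.2), against 1.16 UMIs in germ-cell-like cells (1.12 to 1.21). Macrophage-like cells had 1.82 (1.01 to 3.01), stroma-like cells 1.28 and peritubular-or-pericyte-like cells 1.96 (1.27 to 2.88). Their levels of 9.90 to 10.9 CPM were the low end of the range, with endothelial-like cells at 5.87 CPM on 2 UMIs. The pseudogene Gm48124 overlaps Aldh1a2 on the other strand.

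Aldh1a3 (ENSMUSG00000015134, chr7:66390890-66427517, minus strand), the third retinal dehydrogenase, had its highest level in stroma-like cells, at 71.0 CPM (43 UMIs in 41 cells, 51.4 to 95.6). Undifferentiated-spermatogonium-like cells had 35.4 CPM, 2.01-fold less (1.39 to 2.84), and differentiating-spermatogonium-like cells 22.3 CPM. The spermatogonial UMIs were unevenly spread. One undifferentiated-spermatogonium-like cell held 18 of 145 UMIs and 1 differentiating-spermatogonium-like cell held 29 of 184, while the largest number in a stroma-like cell was 2. Without the top cell of each class the levels were 31.0 CPM and 18.8 CPM. Sertoli-like cells had 18.9 CPM, Leydig-like cells 9.97 CPM, early-prophase-like cells 7.68 CPM and the remaining classes 3.46 to 8.80 CPM.

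Cyp26a1 (ENSMUSG00000024987, chr19:37697798-37701536, plus strand), a retinoic acid hydroxylase, was rare and held in 2 places. Of its 86 UMIs, Sertoli-like cells held 30 (19.5 CPM, 13.2 to 27.9) and undifferentiated-spermatogonium-like cells held 29 (7.07 CPM, 4.74 to 10.2). The Sertoli-like level was 2.76-fold above the spermatogonial one (1.60 to 4.77). In the larger Sertoli-like cluster, described below, Cyp26a1 had 9.97 CPM on 8 UMIs. The spermatogonial UMIs came from 28 of 306 cells and the Sertoli-like ones from 16 of 183 cells. Every other named class of at least 50 cells was at or below 0.837 CPM, on 6 UMIs or fewer, and the unnamed cells had 2.96 CPM on 5 UMIs. Stroma-like, macrophage-like and endothelial-like cells held none, which allows up to 4.95, 2.16 and 8.80 CPM (3 counts over each class).

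Cyp26b1 (ENSMUSG00000063415, chr6:84571414-84593908, minus strand), the other hydroxylase among the members, marked the cells around and between the tubules. It stood at 1387 CPM in peritubular-or-pericyte-like cells (3312 UMIs, 1340 to 1435) and at 1210 CPM in stroma-like cells (733 UMIs, 1124 to 1300). These classes held 68.9% and 15.2% of its UMIs, with levels at a ratio of 1.15 (1.06 to 1.24). The next class, endothelial-like cells, was 41.2-fold below stroma-like cells (22.3 to 86.3), and 9 of its 10 UMIs came from 1 cell. Leydig-like cells had 27.7 CPM, and Sertoli-like cells had 11.1 CPM on 17 UMIs. The germ-cell-like classes ran from 9.83 CPM in pachytene-like to 14.4 CPM in differentiating-spermatogonium-like cells. After thinning, 65.1% of peritubular-or-pericyte-like and 46.1% of stroma-like cells held a UMI, against 0.446% of pachytene-like and 1.09% of Sertoli-like cells. Per 100 UMIs of the 11 peritubular and pericyte markers, germ-cell-like cells had 10.5 Cyp26b1 UMIs (9.47 to 11.7), between the 7.70 of peritubular-or-pericyte-like cells and the 221 of stroma-like cells.

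Crabp1 (ENSMUSG00000032291, chr9:54764748-54773110, plus strand), a cytoplasmic retinoic acid binding protein, was a gene of spermatogonia in this library. It stood at 175 CPM in undifferentiated-spermatogonium-like cells (719 UMIs) and 246 CPM in differentiating-spermatogonium-like cells (2025 UMIs), which together held 88.1% of its 3115 UMIs. Differentiating-spermatogonium-like cells were 1.40-fold the higher (1.29 to 1.53). Early-prophase-like cells had 13.1 CPM and pachytene-like cells 4.39 CPM. The highest somatic-like level was 13.2 CPM in stroma-like cells, on 8 UMIs, which was 13.3-fold below undifferentiated-spermatogonium-like cells (6.71 to 30.9). After thinning, 16.3% of undifferentiated-spermatogonium-like and 18.4% of differentiating-spermatogonium-like cells held a UMI, against 0.447% of peritubular-or-pericyte-like cells.

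Crabp2 (ENSMUSG00000004885, chr3:87948666-87953376, plus strand), which is known to hand retinoic acid to its receptors, was rare. Its 77 UMIs came from 24 in undifferentiated-spermatogonium-like (5.85 CPM), 27 in differentiating-spermatogonium-like (3.28 CPM), 24 in early-prophase-like (1.96 CPM), 1 in pachytene-like and 1 in unnamed cells. None was found in 2595 somatic-like cells with 14760263 UMIs, which allows up to 0.203 CPM. Undifferentiated- and differentiating-spermatogonium-like cells could not be told apart (ratio 1.79, 0.987 to 3.22), nor could differentiating-spermatogonium-like and early-prophase-like cells (1.67, 0.929 to 3.03).

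Stra6 (ENSMUSG00000032327, chr9:58063788-58153996, plus strand), the membrane receptor for retinol binding protein, had 74 UMIs in all. Sertoli-like cells held 24 of them, in 16 cells, a level of 15.6 CPM (10.0 to 23.3). The next named class, macrophage-like cells, had 2 UMIs and 1.44 CPM, a ratio of 10.9 (2.69 to 94.7). The unnamed cells, which were not ranked, had 4.74 CPM (2.05 to 9.34) on 8 UMIs. The germ-cell-like classes lay between 0.732 and 1.23 CPM, Leydig-like cells were at 0.356 CPM, and stroma-like and endothelial-like cells held none. Stra6 overlaps Ccdc33 on the other strand and Gm16131 on the same strand, so single UMIs in germ-cell-like cells are uncertain.

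Rarg (ENSMUSG00000001288, chr15:102234938-102257517, minus strand), the receptor known to act in spermatogonia, was lower in each later germ-cell-like class. It stood at 14.1 CPM in undifferentiated-spermatogonium-like cells (58 UMIs), 9.71 CPM in differentiating-spermatogonium-like cells (80 UMIs), 3.76 CPM in early-prophase-like cells (46 UMIs) and 0.797 CPM in pachytene-like cells (6 UMIs). The highest level, 23.5 CPM in endothelial-like cells, rested on 8 UMIs and could not be told apart from the undifferentiated-spermatogonium-like one (ratio 1.66, 0.684 to 3.49). Macrophage-like cells had 12.2 CPM, and Sertoli-like cells had 1.95 CPM on 3 UMIs. Rara, the receptor known from Sertoli cells, stood at 69.1 CPM in Sertoli-like cells and at 32.9 CPM in undifferentiated-spermatogonium-like cells.

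Germ-cell-like cells were then set against somatic-like cells, with a gene called when it differed at least 2-fold with at least 20 UMIs over both. Of the 10 members, 3 were called higher and 2 lower in germ-cell-like cells. Of all 18398 genes tested, 39.6% were called higher and 25.6% lower, so these counts are near or below the background. Crabp1 had 91.5 CPM in germ-cell-like cells against 5.62 CPM in somatic-like ones, 16.3-fold higher (13.1 to 20.5). Aldh1a2 had 81.6 CPM against 39.2 CPM, 2.08-fold higher (1.90 to 2.28). Crabp2 had 76 UMIs in germ-cell-like and 0 in somatic-like cells, at least 11.6-fold higher with 3 counts set for the somatic-like group, while the exact interval of the ratio with its 0 count starts at 9.24. These 3 genes carry retinoic acid or make it, but Aldh1a1, which was called lower, makes it too.

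On the other side, Aldh1a1 had 68.0 CPM in germ-cell-like cells against 2367 CPM in somatic-like ones, 34.8-fold lower (33.3 to 36.4). Cyp26b1 had 12.4 CPM against 293 CPM, 23.6-fold lower (21.3 to 26.2). The other 5 members stayed within 2-fold. Aldh1a3 had 13.99 CPM in germ-cell-like cells against 12.1 CPM in somatic-like ones, Rdh10 had 12.9 and 13.9 CPM, and Rarg had 5.92 and 6.23 CPM. Cyp26a1 had 1.34 CPM in germ-cell-like cells against 2.57 CPM in somatic-like ones, and Stra6 had 1.09 and 2.10 CPM. The median log2 ratio was -0.09 over the members and 0.52 over all genes tested. The Crabp1 ratio moved by over 1.5 times in 3 settings. On the log2 scale it was 4.02 here, 3.09 when every unnamed cluster was given its nearest name, 2.88 with doublets kept and 2.78 with a looser cell filter. With doublets kept, 1 Sertoli-like cluster of 103 cells had 72.8 CPM of Crabp1 and 283 CPM of Aldh1a1. An unnamed shallow cluster of 100 cells in the setting used here was alike, with 74.5 CPM of Crabp1 and 287 CPM of Aldh1a1. The overlap of their barcodes is not given here, and the cause of the shift was not tested.

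Within the germ line, the counts of members called at the first step were near the shares over all genes. Between differentiating- and undifferentiated-spermatogonium-like cells, 0 of 9 members tested were called higher and 1 lower, against 6.91% and 16.2% of 14332 genes. Cyp26a1 had 4 UMIs in differentiating- and 29 UMIs in undifferentiated-spermatogonium-like cells, 0.486 against 7.07 CPM, 14.6-fold lower (5.12 to 57.0). This call did not hold when cells of up to 20% mitochondrial UMIs were kept, where the log2 ratio was -0.52 in place of -3.87. Crabp1 passed 2-fold in that setting and at resolution 2, with log2 ratios of 1.44 and 1.53 in place of 0.49. Aldh1a2, Rdh10 and Cyp26b1 differed by less than their counting intervals.

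The step into meiotic prophase moved 7 members. In early-prophase-like against all spermatogonium-like cells, 2 of 10 were called higher and 5 lower, against 14.1% and 28.8% of 15972 genes. Aldh1a2 had 119.7 CPM in early-prophase-like cells against 35.6 CPM in spermatogonium-like ones, 3.36-fold higher (3.02 to 3.75), and Rdh10 had 21.2 and 8.59 CPM, 2.46-fold higher (1.96 to 3.12). Both are enzymes of synthesis, but so is Aldh1a3, which was called lower. Crabp1 had 13.1 CPM against 222 CPM, 17.0-fold lower (14.5 to 20.1), and Rarg had 3.76 against 11.2 CPM, 2.98-fold lower (2.12 to 4.25). Aldh1a3 was 3.47-fold lower (2.75 to 4.42), Cyp26a1 8.19-fold lower on 4 and 33 UMIs (2.91 to 31.8) and Crabp2 2.11-fold lower on 24 and 51 UMIs (1.27 to 3.58). The median log2 ratio was -0.55 over the members and -0.23 over all genes tested.

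From early prophase to pachytene no tested member was called higher. In pachytene-like against early-prophase-like cells, 0 of 9 members tested were called higher and 5 lower, against 18.1% and 28.7% of 14840 genes. Rdh10 had 6.38 CPM in pachytene-like and 21.2 CPM in early-prophase-like cells, 3.32-fold lower, and Rarg had 0.797 and 3.76 CPM, 4.71-fold lower. Crabp1 was 2.98-fold and Aldh1a3 2.22-fold lower, and Crabp2 had 1 UMI against 24. Aldh1a2 had 95.3 CPM in pachytene-like and 119.7 CPM in early-prophase-like cells, which is within 2-fold.

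The germ-cell-like cells fell into 9 clusters, which were ordered by their marker scores, and the members changed at different places in that order. Crabp1 was highest in the first differentiating-spermatogonium-like cluster, at 291 CPM, then stood at 123 CPM in the next and at 26.6 CPM in the first early-prophase-like cluster. Rdh10 had its highest level, 38.2 CPM (128 UMIs), in that first early-prophase-like cluster of 716 cells, then 21.6, 12.3 and 6.92 CPM in the other 3 early-prophase-like clusters. Aldh1a2 was higher from the same cluster on, but unevenly. It stood at 46.0 CPM in the second differentiating-spermatogonium-like cluster, at 138.8, 151, 74.0 and 99.9 CPM in the 4 early-prophase-like clusters and at 73.9 and 118 CPM in the 2 pachytene-like clusters. Stra8, the gene that retinoic acid is known to induce before meiosis, was highest in the same cluster as Rdh10, at 761 CPM, against 211 CPM in the cluster before it and 100.2 CPM in the one after. Gm4969, which encodes the partner of STRA8 known as MEIOSIN, was also highest there, at 111 CPM.

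Other members marked the start of the order. Aldh1a3 stood at 35.4 and 27.7 CPM in the first 2 clusters and at 10.7 CPM or less in the other 7. Cyp26a1 stood at 7.07 CPM in the first cluster and at 0.894 CPM or less in the other 8. Rarg was at 14.1, 9.17 and 11.2 CPM in the 3 spermatogonium-like clusters and at 0.547 CPM in the last. Rarb, another receptor, had 14.4 CPM in the first cluster and 3.08 CPM or less in the others. The clusters differ in depth, with medians of 3638 to 20128 UMIs per cell. After thinning, the share of cells with a Rdh10 UMI was 4.05% in the first early-prophase-like cluster, 1.29% in the cluster before it and 2.57% in the one after.

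**Figure D3:**
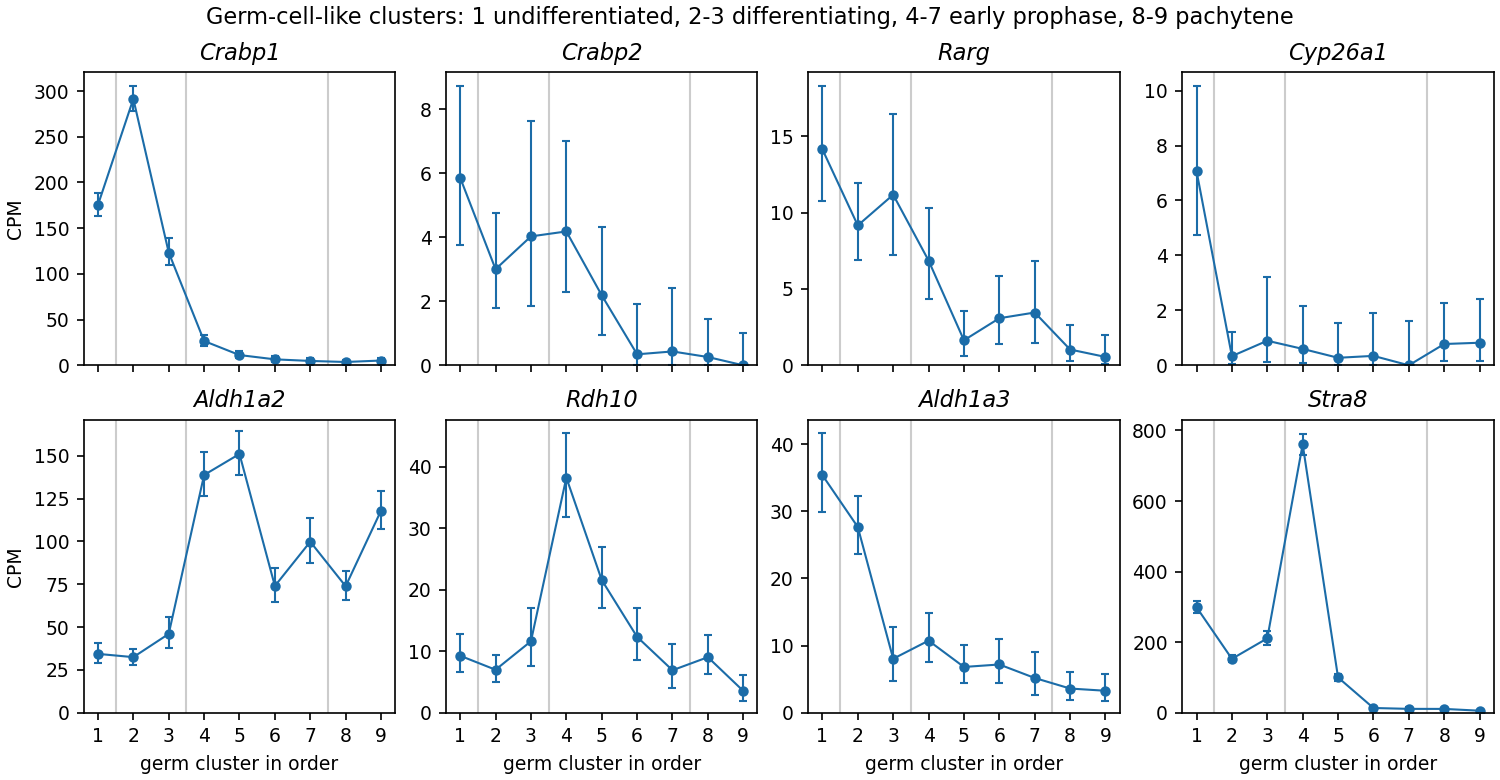
Levels of 7 members and of Stra8 in the 9 germ-cell-like clusters, in CPM on linear axes that start at 0, with exact Poisson 95% intervals; grey lines part the 4 classes. Crabp1 is highest at 291 CPM in cluster 2, Rdh10 at 38.2 CPM and Stra8 at 761 CPM in cluster 4, and Aldh1a2 is at 73.9 CPM or above from cluster 4 on.

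The Sertoli-like cells were not alike. They formed a smaller cluster of 80 cells, led by Wfdc18, Sncb, Tesc, Hrk and Wnt4, and a larger cluster of 103 cells, led by Tox, Gstm6 and Fshr, at median depths of 8641.5 and 8146 UMIs. Most of the Rdh10, Aldh1a2 and Cyp26a1 of the class lay in the smaller cluster. Rdh10 had 103.8 CPM in the smaller and 14.95 CPM in the larger cluster, 6.94-fold higher (3.75 to 14.03), with a UMI in 42 of 80 against 11 of 103 cells. Aldh1a2 had 142 CPM in the smaller and 28.7 CPM in the larger cluster, 4.96-fold higher (3.13 to 8.16), with a UMI in 47 against 16 cells. Cyp26a1 had 30.05 against 9.97 CPM, 3.01-fold higher (1.29 to 7.83), on 22 and 8 UMIs in 12 and 4 cells. The other breakdown enzyme, Cyp26b1, had 2.73 against 18.7 CPM, on 2 and 15 UMIs, too few for a call.

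Aldh1a1 went the other way, with 407 CPM in the smaller and 827 CPM in the larger cluster, 2.03-fold lower (1.77 to 2.34). The 8 Leydig markers were lower in the smaller cluster too, at 922 against 1572 CPM. The part of free Leydig RNA in the Aldh1a1 difference was not tested. Stra6 had 17.8 and 13.7 CPM (ratio 1.30, 0.536 to 3.19) and Aldh1a3 21.9 and 16.2 CPM (1.35, 0.608 to 3.05). Cyp26b1, Crabp1 and Rarg each had fewer than 20 UMIs over both clusters and Crabp2 had none. Of the 6 members tested, 3 were called higher and 1 lower, against 9.87% and 13.1% of 8751 genes. The clusters were drawn from the expression of these cells, so the difference is a description, although the 10 genes took no part in drawing them.

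Among other retinoid genes, Tgm2 and Rarres2, known to respond to retinoic acid, had 234 against 19.9 CPM and 49.2 against 2.49 CPM. Rarres1, of the same list, had 36.9 against 73.5 CPM (ratio 0.502, 0.306 to 0.804), and Dmrt1 had 42.3 against 89.7 CPM, 2.12-fold lower (1.37 to 3.34). Rara went the other way, with 35.5 against 99.7 CPM, 2.81-fold lower (1.78 to 4.55). Of the 57 other retinoid genes, 21 could be tested, with 4 higher and 5 lower, against 9.87% and 13.1% of 8751 genes. The 12 Sertoli markers summed to 9241 CPM in the smaller and 13573 CPM in the larger cluster, and none was at 0 in either. Most of these markers were lower in the smaller cluster, Cst9 by 10.4-fold, Fshr by 7.87-fold, Rhox5 by 5.25-fold and Cst12 by 2.83-fold. Inha (1.85-fold), Rhox8 (1.73-fold) and Aard (1.54-fold) were lower too. Sox9 and Defb36 were 1.67-fold and Clu 1.33-fold higher, while Wt1 and Amh did not differ beyond the interval. None of the 12 was among the top 10 genes of the smaller cluster, so its Sertoli-like name is weaker.

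Markers of other cell types also differed between the Sertoli-like clusters. Markers of undifferentiated spermatogonia summed to 1501 CPM in the smaller and 652 CPM in the larger cluster, with 6 of 14, among them Gfra1 and Nanos2, at 0 in the smaller. The 15 early prophase markers summed to 492 and 848 CPM, the 8 Leydig markers to 922 and 1572 CPM, and the 8 epithelial markers to 50.5 and 11.2 CPM. Aldh1a2 was higher in the smaller cluster, as were the spermatogonial and epithelial markers, while the early prophase and Leydig markers were lower there. The part of RNA from any of these cell types in the differences of the members was not tested. The smaller cluster was found again at resolution 2 (100% of its cells in 1 cluster) and with 2000 variable genes (96.2%) or up to 20% mitochondrial UMIs (95%), and Rdh10 stood at 103.8, 92.8 and 99.4 CPM there. It merged with other Sertoli-like cells when doublets were kept or the cell filter was loosened, with Rdh10 at 58.6 and 49.9 CPM in the merged clusters.

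**Figure D4:**
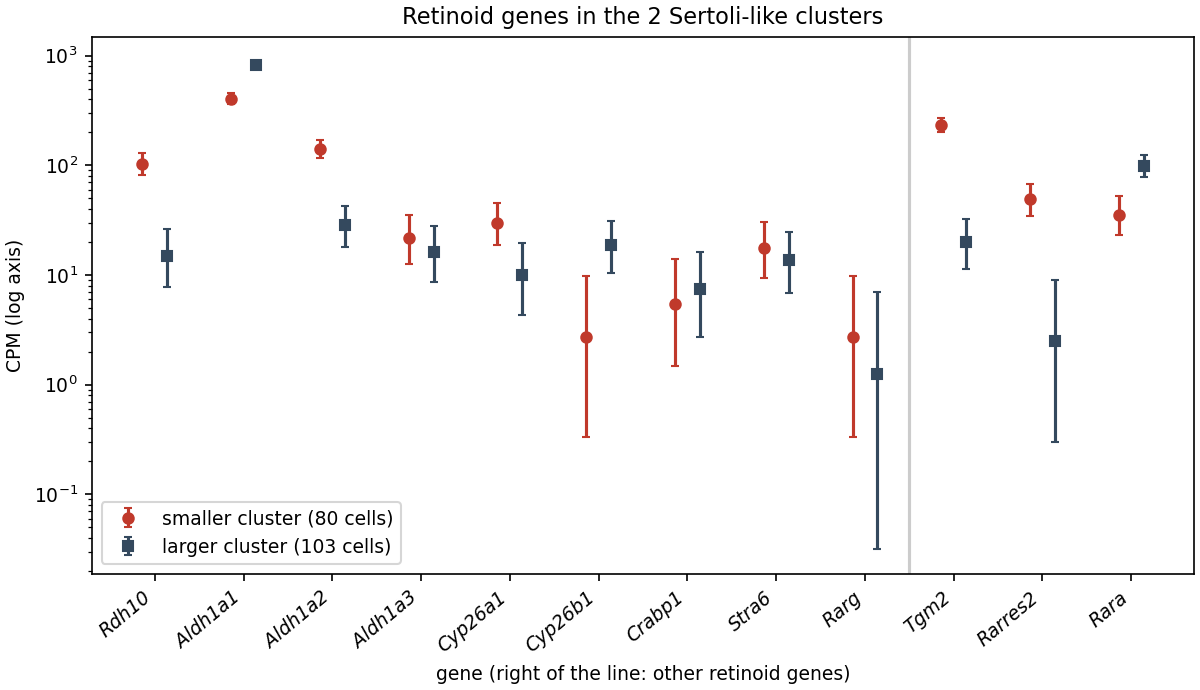
Levels of 9 members and 3 other retinoid genes in the smaller (80 cells, circles) and larger (103 cells, squares) Sertoli-like cluster, in CPM on a log axis, with exact Poisson 95% intervals. Rdh10 (103.8 against 14.95 CPM), Aldh1a2 and Tgm2 are higher and Aldh1a1 and Rara lower in the smaller cluster.

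The peritubular-or-pericyte-like class also held 2 clusters, and Cyp26b1 belonged to 1 of them. The smaller, of 68 cells, was led by Rgs5, a pericyte gene, and the larger, of 603 cells, by Acta2. Cyp26b1 had 47.3 CPM in the smaller (11 UMIs) and 1531 CPM in the larger cluster (3301 UMIs), 32.4-fold lower (18.1 to 64.9). Acta2 itself, the smooth muscle actin, differed little, at 8893 and 10376 CPM, and Rgs5 had 1699 CPM in the smaller and no UMI in the larger cluster. Aldh1a1 had 202 and 459 CPM, 2.27-fold lower (1.69 to 3.11). Rbp4, the carrier of retinol in plasma, followed Cyp26b1, with 8.60 CPM in the smaller and 491 CPM in the larger cluster. Of 4 members tested, 2 were called higher and 2 lower, against 11.7% and 13.3% of 9799 genes. The 2 higher ones were Aldh1a2, on 7 and 19 UMIs, and Crabp1, whose 9 UMIs in the smaller cluster came from 1 cell.

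The unnamed shallow cells held Crabp1 above the somatic-like level. Their 3 clusters had 57.5, 74.5 and 21.4 CPM of Crabp1 (62, 28 and 5 UMIs), against 5.62 CPM in somatic-like cells. In the second, 1 cell held 10 of the 28 UMIs. Without the top cell of each cluster the levels were 54.2, 51.0 and 13.6 CPM. The first was led by Cst9 and Akr1cl, genes of different somatic cells, and the second by Mageb18 and Grip1. Per 100 UMIs of the 9 differentiating spermatogonium markers, these clusters had 11.0, 17.7 and 4.46 Crabp1 UMIs, against 24.4 in differentiating-spermatogonium-like and 2.62 in somatic-like cells. What these barcodes hold was not tested.

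After thinning to 1000 UMIs, a cell seldom held several members. At least 1 of the 10 was found in 95.3% of Leydig-like, 75.4% of peritubular-or-pericyte-like, 72.2% of stroma-like and 49.7% of Sertoli-like cells, and in 31.0%, 33.0%, 25.7% and 14.3% of the 4 germ-cell-like classes in stage order. At least 2 were found in 26.1% of stroma-like and 24.7% of peritubular-or-pericyte-like cells, against 11.9% of Leydig-like and at most 3.499% of any germ-cell-like class.

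Outside the members, 57 other retinoid genes were listed, and 43 could be tested between germ-cell-like and somatic-like cells, with 12 higher and 19 lower, against 39.6% and 25.6% of all genes tested, the background for each count between these groups below. Of enzymes of retinol oxidation and reduction, 2 of 12 were higher and 8 lower in germ-cell-like cells. Dhrs3, which reduces retinal, stood at 85.7 CPM in macrophage-like and 71.6 CPM in Leydig-like cells, and Adh1 at 128 CPM in Leydig-like cells. Adh5 had the highest level of this list, 297 CPM in Leydig-like cells. Aldh1a7 was the highest of the further retinal oxidation genes, at 229 CPM in Leydig-like cells. Of the carriers, 0 of 4 were higher and 3 lower in germ-cell-like cells.

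Of genes for uptake and storage, 2 of 6 were higher and 2 lower in germ-cell-like cells. Lrat, which stores retinol as esters, was a gene of the last stage, at 26.4 CPM in pachytene-like cells, with stroma-like cells next at 6.60 CPM on 4 UMIs. It was 23.1-fold higher in pachytene-like cells than in the early prophase class, and Rdh11, a retinol dehydrogenase, was the other listed gene called higher there, at 2.91-fold. In all, 35 listed genes were tested at that step, and 18.1% of all genes tested were called higher. Lpl, known for lipid uptake, was the highest of the list, at 416 CPM in macrophage-like cells. Of the receptors and partners, 2 of 10 were higher and 2 lower in germ-cell-like cells, and Ncoa2 was the highest at 409 CPM in Sertoli-like cells. Of the 7 genes known to respond to retinoic acid in germ cells, 6 were higher in germ-cell-like cells, and Dmrt1, a spermatogonial transcription factor, was the highest, at 315 CPM in undifferentiated-spermatogonium-like cells. The exception was Kit, the receptor of differentiating spermatogonia, which had 185 CPM in Leydig-like cells and 129 CPM in differentiating-spermatogonium-like cells. Between early-prophase-like and pachytene-like cells, 6 of the 7 were lower in the later stage, Stra8 by 28.2-fold. Of all 14840 genes tested at that step, 28.7% were lower. Of the 3 other responsive genes tested, all were lower in germ-cell-like cells, and Rarres2 was the highest at 459 CPM in stroma-like cells.

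Genes with patterns like the members were named by Pearson's r of log2(CPM + 10) over the 21 clusters of at least 50 cells, among genes with at least 500 UMIs. The clusters share 1 library and its free RNA, so r is a description. Acsbg1 (0.96), Akr1cl (0.96) and Pank1 (0.96) were most like Aldh1a1, and Mfap4 (0.98), Slc38a5 (0.96) and Col1a1 (0.94) most like Cyp26b1. Camk4 (0.95), Cpne5 (0.94) and Clstn2 (0.93) were most like Crabp1. Ptp4a3 (0.91), Dgkz (0.89) and Rassf3 (0.86) were most like Rarg. The nearest genes were less close for Aldh1a2 (Mrpl51 0.84, Sesn3 0.84, Otud7b 0.83), Rdh10 (Pdcd6ip 0.76, Pi4kb 0.72, Numa1 0.72) and Aldh1a3 (Prpf19 0.74, Tmco4 0.74, Adamts19 0.74). Cyp26a1, Crabp2 and Stra6 had fewer than 100 UMIs and were not compared.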

How the data were processed

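Mouse testis cells of 1 of 4 libraries were analysed. The authors deposited raw UMI counts for each gene in each barcode. Per the file headers, these come from Cell Ranger 7.1.0. STAR and mm10 stand in the submitters' processing notes. The sources used here do not say how barcodes were called or whether intron reads or strand were used. Of 15306 barcodes, 8121 passed minimums of 500 genes and 1000 UMIs and a mitochondrial share of up to 10%. Scrublet (scanpy 1.11.5) called 265 (3.26%) doublets, which were removed. Free RNA was not subtracted.

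From 3000 variable genes, 30 principal components and 15 neighbours, Leiden clustering at resolution 1 (leidenalg 0.10.2) gave 23 clusters. The variable genes left out 1889 genes, namely the members, other retinoid genes and those of X, Y or mitochondria. A cluster took the name of highest mean marker score, log2 against the median cluster, if that reached 1 with a lead of 0.25 (not asked between consecutive germ stages) and at least 3 markers were at 2-fold or more. Clusters with a median depth under that of all cells divided by 3, and none of the name's markers among their top 10 genes, stayed unnamed. The scoring was settled after clusters were seen, and names rest on rebuilt clusters. The members and lists were chosen with earlier results of these data known. All members were named. Of the other lists, the highest gene and Stra8, Kit, Rara, Rbp4, Dhrs3 and Lrat were named by rule (1 further gene is not reported here), and other retinoid genes and markers were chosen after their values were seen.

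Summed counts have exact Poisson, ratios exact conditional binomial and shares of cells Clopper-Pearson 95% intervals. A count of 0 was set to 3 counts over the class. Ratio and interval steps were tested on simulated data. Gene positions came from a GENCODE annotation of the same build, which matched 32235 of 32285 genes.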

Additional observations from a re-analysis of the deposited data

How the results depend on the processing

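The class with the highest level was the same for all 10 members in every setting that gave ranks, with Crabp2 the exception. With at least 200 genes and 500 UMIs, Crabp2 moved to differentiating-spermatogonium-like cells (9 of 10 the same). No cluster was undifferentiated-spermatogonium-like in that setting, so Crabp2 could not keep its class there. Counts of members between differentiating- and undifferentiated-spermatogonium-like cells, 0 higher and 1 lower, moved most: 1 higher and 0 lower with up to 20% mitochondrial UMIs, 2 higher at Leiden resolution 2, 2 lower with 2000 variable genes, 2 lower with equal weight for each cell, and 0 lower with at least 50 UMIs over both classes. The cause was not tested, except that the last setting leaves Cyp26a1 untested. With 3-fold for a call, 1 member was higher and 3 lower in early-prophase-like against spermatogonium-like cells, and 3 were lower in pachytene-like against early-prophase-like cells. The share over all genes at 3-fold is not given here, so these counts are not read further.

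Of 290 single ratios over these alternatives, 262 stayed within the counting interval of the reported value, 28 moved beyond it and 0 of the called ones reversed. Uncalled ratios that crossed 1 between germ-cell-like and somatic-like cells were those of Rdh10, at 0.58 on the log2 scale with equal weight for each cell, and Rarg, at 0.57 with up to 20% mitochondrial UMIs. With at least 200 genes and 500 UMIs, Scrublet called no cell a doublet, so it did not work there, and no cluster was undifferentiated-spermatogonium-like, so that comparison has no value. Leaving out the cell with the most UMIs, an alternative chosen after seeing the data, kept each member within its interval in its highest class. No paired analysis was possible because each group has 1 library and no test was made. Depth limits Cyp26a1, Crabp2 and Stra6, with 74 to 86 UMIs each.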
